A study of Homo sapiens with 2 samples.

Results

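The miR-30 family was followed through small RNA libraries of MCF10A cells, a non-tumorigenic human breast epithelial line, with and without withaferin A, a steroidal lactone of the plant Withania somnifera. Its loci were those whose miRNA name in the counts table was miR-30a, miR-30b, miR-30c, miR-30d or miR-30e with any arm or copy suffix, which gave 5 of 947 loci, 1 for each member and all named 5p. The study set untreated cells (n = 3 libraries) against cells kept in withaferin A at 2 µM over 24 h (n = 3 libraries). The labels give 1 record per group that names 3 replicates, and do not say that these came from separate cultures, so p-values measure only the spread between libraries, which may be technical. By their protocol text, taken in its order, untreated libraries were built with a QIAseq kit and treated ones with a NEBNext kit, which means that the effects of kit and drug cannot be told apart.

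Depth differed widely between the groups. Untreated libraries held 1855838 to 2615684 counts, and the withaferin A libraries 418, 430 and 340, which sum to 1188. A locus with 0 of these 1188 counts could hold up to 0.253% of them (3 counts), the floor used below. This floor and all intervals cover counting error only. All 7 epithelial miRNAs looked for (miR-200a, miR-200b, miR-200c, miR-141, miR-429, miR-205 and miR-203a) had counts in untreated libraries. Together they took 6.93% to 7.80% of counts there, most of it miR-205-5p, while miR-200a-5p (mean 0.00145%) and miR-429 (mean 0.000418%) were near 0. Lists from other tissues were near 0 in untreated libraries, at no more than 0.00533% for mesenchymal and stromal, 0.0111% for blood cell and 0.00793% for liver and muscle miRNAs. These sums cover the 5 of 6, 5 of 6 and 2 of 5 listed miRNAs that matched a locus, since miR-214, miR-451a, miR-133a, miR-133b and miR-206 matched none and were not analysed here. The matched loci of all 3 lists had 0 counts after withaferin A, but shares this low lie far below the floor of 0.253%, so nothing could be seen of them at this depth.

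miRNAs are short RNAs that guide Argonaute proteins to messenger RNAs, mainly by pairing of the seed, bases 2 to 8 counted from the 5′ end. The miR-30 members are made from hairpins that lie in genomic pairs, and they share 1 seed, so they are thought to act on overlapping sets of messages. The family is known for a role in keeping epithelial cells epithelial, with SNAI1 and vimentin among its reported targets, and for repressing the autophagy gene BECN1. In bulk libraries a lower share cannot be told apart from higher shares of other RNAs, and fewer expressing cells cannot be told apart from less miRNA per cell.

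The mature 5p sequences are shown because they set which reads can be told apart, with the seed in capitals (RefSeq, GRCh38.p14; 3 of the 5 loci had a sequence that could be used here).
miR-30a-5p: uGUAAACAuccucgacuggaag
miR-30e-5p: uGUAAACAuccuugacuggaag
miR-30c-5p: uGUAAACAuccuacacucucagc
The first 12 bases are the same in all 3. miR-30a-5p and miR-30e-5p differ by C13U alone, counted from 1 at the 5′ end with the base of miR-30a-5p first. miR-30a-5p and miR-30c-5p differ by C13A, G14C, G18C, G19U and A20C over the 22 positions they share. Among 2370 mature names read from RefSeq, which did not take in miR-30b-5p and miR-30d-5p, no name outside the family held the seed GUAAACA. A read of miR-30a with 1 wrong or edited base at position 13 would therefore read as miR-30e, and the counting rule that would settle such reads is not given in the sources used here.

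The opposite arms fall into a different pair of seeds, and are shown because a locus named 5p in this table may stand for its whole hairpin.
miR-30a-3p: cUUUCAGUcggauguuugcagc
miR-30e-3p: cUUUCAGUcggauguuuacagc
miR-30c-1-3p: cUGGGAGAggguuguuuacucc
miR-30c-2-3p: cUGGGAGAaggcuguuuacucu
Whether reads of these arms were added to the 5p loci cannot be read from the table, so every value below is for a locus as named.

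Both miR-30c hairpins carry the same mature sequence, in capitals.
MIR30C1: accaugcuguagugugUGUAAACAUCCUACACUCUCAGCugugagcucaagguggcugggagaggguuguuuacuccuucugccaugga
MIR30C2: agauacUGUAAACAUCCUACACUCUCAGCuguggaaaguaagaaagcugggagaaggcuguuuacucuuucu
Mature reads cannot be assigned to 1 of these hairpins, so the chromosome 6 locus may hold reads of both. In all, 53 names stand at more than 1 locus of this table, while miR-30c stands at 1.

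The 6 hairpins of the family form 3 genomic pairs, on chromosomes 1, 6 and 8. On chromosome 1, MIR30E (chr1:40754355-40754446, plus strand) and MIR30C1 (chr1:40757284-40757372, plus strand) lie 2837 bases apart in introns of NFYC, a gene for a subunit of the transcription factor NF-Y. On chromosome 6, MIR30C2 (chr6:71376960-71377031, minus strand) and MIR30A (chr6:71403551-71403621, minus strand) lie 26519 bases apart in introns of the non-coding genes LINC00472 and AL136164.2. On chromosome 8, MIR30B (chr8:134800520-134800607, minus strand) and MIR30D (chr8:134804876-134804945, minus strand) lie 4268 bases apart in no annotated host gene. These positions are GENCODE release 29 on GRCh38; the table itself gives a chromosome and a running number per locus and no position. It lists miR-30e on chromosome 1, miR-30c and miR-30a on chromosome 6 and miR-30b and miR-30d on chromosome 8. The MIR30C1 copy was not analysed here, so the chromosome 1 pair is represented by miR-30e alone.

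In untreated cells the family took 3.28% ± 0.651 of counts (SD, n = 3), from 83896, 68821 and 72999 counts in replicates 1, 2 and 3. hsa-miR-30d-5p, from the chromosome 8 pair and reported with miR-30b to promote invasion in melanoma, made up 52.5% ± 8.11 of the family (SD, n = 3). It held 43251, 41965 and 32726 counts, or 1.68%, 1.60% and 1.76% of the 3 libraries. Its level was the highest of the family in all 3 untreated libraries, and it ranked 14 among all loci by mean untreated share.

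hsa-miR-30a-5p, the member most often studied as a repressor of SNAI1 and BECN1, came next in all 3 libraries. It had 17592, 9677 and 19372 counts, or 0.684%, 0.370% and 1.04%. hsa-miR-30e-5p, its near-identical relative on chromosome 1, had 9944, 6399 and 9726 counts, or 0.387%, 0.245% and 0.524%. The ranges of miR-30a and miR-30e overlapped between libraries, but within each library miR-30a was higher, by 1.77, 1.51 and 1.99 times.

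hsa-miR-30c-5p, reported to act on the actin-binding protein gene TWF1 in breast cancer cells, had 7968, 8179 and 5391 counts, or 0.310%, 0.313% and 0.290%. hsa-miR-30b-5p, the neighbour of miR-30d, had 5141, 2601 and 5784 counts, or 0.200%, 0.0994% and 0.312%. The lower 3 members could not be put in 1 order: miR-30e, miR-30c, miR-30b in replicate 1, miR-30c, miR-30e, miR-30b in replicate 2 and miR-30e, miR-30b, miR-30c in replicate 3. Mean shares with SD (n = 3) were 1.68% ± 0.0795 for miR-30d-5p, 0.699% ± 0.337 for miR-30a-5p, 0.385% ± 0.140 for miR-30e-5p, 0.304% ± 0.0121 for miR-30c-5p and 0.204% ± 0.106 for miR-30b-5p.

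**Figure D1:**
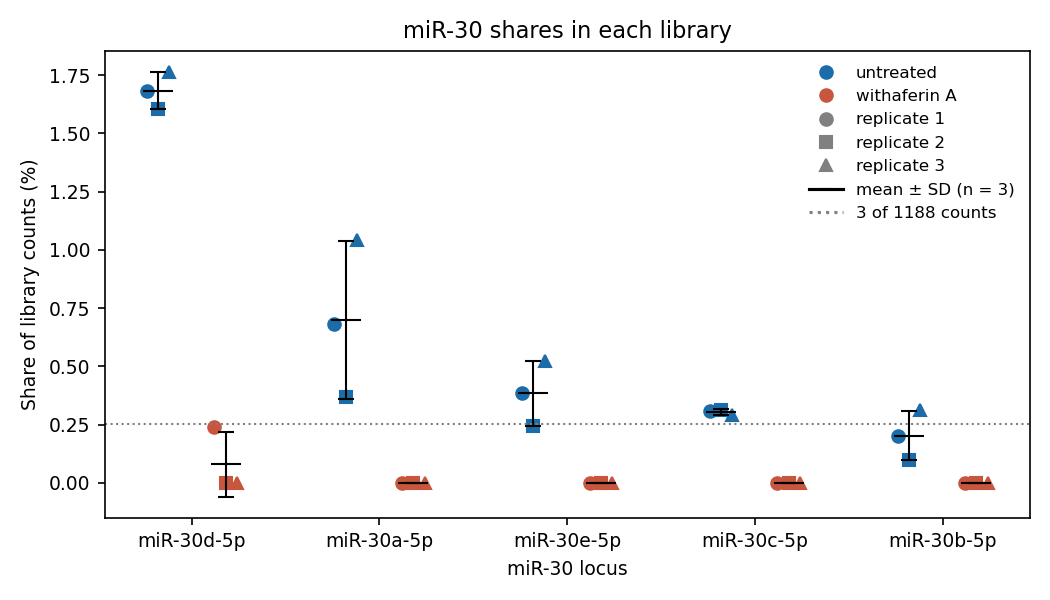
Share of library counts in percent (y axis) for each miR-30 locus (x axis), with 1 point per library, blue for untreated and red for withaferin A, and black bars for the mean ± SD (n = 3). The untreated miR-30d-5p points lie between 1.60% and 1.76%, and every withaferin A point is at 0 except 1 miR-30d-5p count in replicate 1; the dotted line is the floor of 0.253%.

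The members split by how steady they were over the untreated libraries. The highest share was 1.08 times the lowest for miR-30c-5p and 1.10 times for miR-30d-5p, against 2.14 times for miR-30e-5p, 2.82 times for miR-30a-5p and 3.13 times for miR-30b-5p. Replicate 2 was lowest and replicate 3 highest for miR-30a, miR-30e, miR-30b and, within its narrow range, miR-30d, whereas miR-30c was highest in replicate 2 and lowest in replicate 3. The exact 95% interval of the miR-30a-5p share (Clopper-Pearson) was 0.363% to 0.377% in replicate 2 and 1.03% to 1.06% in replicate 3, so its spread was far larger than counting error.

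Among the 237 loci that reached 50 counts in all 3 untreated libraries, the median ratio of highest to lowest share was 1.44. A ratio at least as large as that of miR-30b-5p was seen at 3.38% of them, of miR-30a-5p at 5.06% and of miR-30e-5p at 14.8%. For miR-30d-5p and miR-30c-5p these figures were 92.0% and 96.2%, near the steady end of the table. The order with replicate 3 highest and replicate 2 lowest was common, at 44.7% of the 237 loci. What set the libraries apart was not tested.

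**Figure D2:**
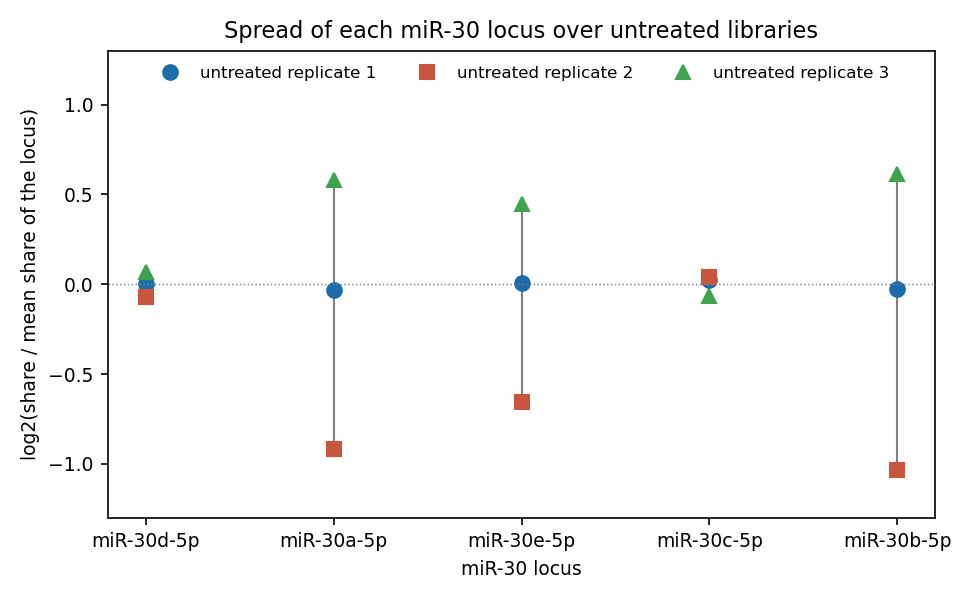
log2 of each untreated library's share over the mean share of the locus (y axis) for the 5 miR-30 loci (x axis), with a marker per replicate and a grey line from lowest to highest. miR-30d-5p and miR-30c-5p stay close to 0, with highest shares 1.10 and 1.08 times the lowest, while miR-30a-5p, miR-30e-5p and miR-30b-5p are low in replicate 2 and high in replicate 3.

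By locus name, the steady and the variable members did not follow the genomic pairs. Ratios of counts within a library, which no scaling can alter, describe this. On chromosome 6 the ratio of miR-30a-5p to miR-30c-5p was 2.21, 1.18 and 3.59 in replicates 1, 2 and 3, a 3.04-fold range. On chromosome 8 the ratio of miR-30d-5p to miR-30b-5p was 8.41, 16.1 and 5.66, a 2.85-fold range. As named, both pairs thus joined a steady and a variable member. The miR-30c locus may hold reads of MIR30C1 on chromosome 1, so its steadiness cannot be placed in the chromosome 6 pair with certainty.

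Ratios between members of different pairs were steadier where both were steady or both variable. miR-30d-5p over miR-30c-5p was 5.43, 5.13 and 6.07, a 1.18-fold range. miR-30a-5p over miR-30b-5p was 3.42, 3.72 and 3.35, a 1.11-fold range. miR-30a-5p over miR-30e-5p spanned 1.32-fold and miR-30e-5p over miR-30b-5p 1.46-fold, whereas miR-30c-5p over miR-30b-5p spanned 3.37-fold. In the 3 mature sequences above, the variable miR-30a and miR-30e differ at 1 of 22 positions, and the steady miR-30c differs from each at 5. The sequences of the steady miR-30d and the variable miR-30b were not compared, so this does not describe the whole family. Whether similar sequence has a part in the pattern was not tested. The ratios come from the same 3 libraries as the split into steady and variable members. They are given as a description, with no test, and are no separate support for that split.

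After withaferin A the family had 1 count in all. It was a miR-30d-5p count in replicate 1, where 1 count is 0.239% of the library, and replicates 2 and 3 had 0. miR-30a-5p, miR-30e-5p, miR-30c-5p and miR-30b-5p had 0 counts in all 3 libraries. At the untreated share, 1188 counts would hold 38.9 miR-30 counts. The family's share went from 3.28% ± 0.651 to 0.0797% ± 0.138 (SD, n = 3), and the groups did not overlap. Such a fall was not particular to miR-30, since 21 of the 48 other loci above the floor had 0 withaferin A counts. Over the summed libraries it was 38.9-fold lower, with exact 95% limits of 7.0 and 1537, a range set by the single count.

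The size of the difference that could be seen was set by each member's untreated level. miR-30d-5p had 1 count against 20.0 expected at its untreated share, a 20.0-fold lower share (exact 95% limits 3.60 to 790). miR-30a-5p had 0 against 8.31 and was at least 2.77-fold lower, with the bound taken at 3 counts over the group, or 2.26-fold by the two-sided exact 95% limit. miR-30e-5p had 0 against 4.58 and was at least 1.53-fold lower (exact limit 1.24). miR-30c-5p had 0 against 3.62 and was at least 1.21-fold lower by the 3-count bound, but its exact limit of 0.982 took in the untreated share, so that its lower level rests on the choice of bound. miR-30b-5p had 0 against 2.42, below the floor, so that a lower level was not detectable at this depth. The 4 members without a count together would have had 18.9 counts at their untreated share.

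A few other loci took larger shares after withaferin A. miR-205-5p and the let-7 loci took most withaferin A counts, and only 177 of the 1188 counts lay outside them. Among counts outside those loci the family took 4.26% ± 0.630 in untreated libraries (SD, n = 3), and 1 count was seen in withaferin A libraries against 7.54 expected. On that base the family was 7.54-fold lower, with exact 95% limits of 1.37 and 298. For miR-30d-5p alone 3.89 counts were expected on that base, and the limits no longer lay wholly below the untreated share (lower limit 0.708-fold).

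**Figure D3:**
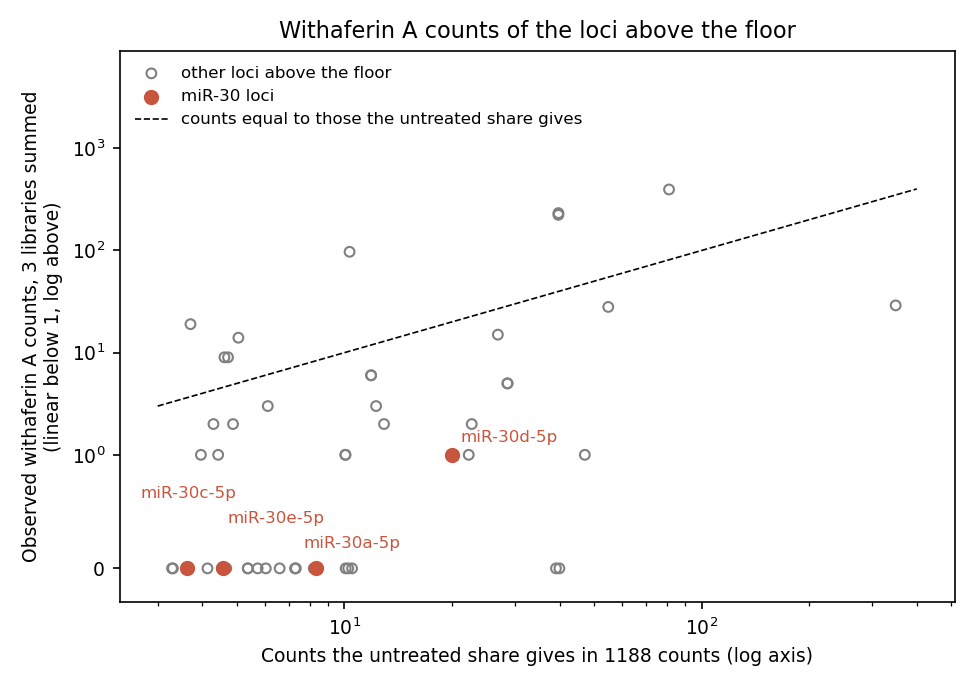
Observed withaferin A counts summed over 3 libraries (y axis, linear below 1 and log above) against the counts that the untreated share gives in 1188 counts (x axis, log), with 1 point for each of the 52 loci above the floor. The 4 miR-30 loci in red lie at 0 or 1 count with 3.62 to 20.0 expected, among many other loci in the same place; the dashed line marks equal counts.

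In edgeR's quasi-likelihood test over 303 loci (trimmed mean of M values, TMM, scaling; Benjamini-Hochberg adjusted p under 0.05), 4 of the 5 miR-30 loci were called lower and 0 higher, against 16.8% of all tested loci called lower. Every member passed the filter on low counts through the untreated libraries alone, so this count is a description and no support. Among the 52 loci above the floor, 80.8% were called lower (42 loci), among them all 4 miR-30 loci above it.

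miR-30d-5p fell by 5.56 ± 0.81 on the log2 scale (SE, edgeR adjusted p = 0.00474), lower in 3 of 3 libraries. So low a count was not particular to it, since 31 of the 52 loci above the floor had at most 1 withaferin A count. For the members without a count the fitted change depends on the prior count and is not a size, so only the test is given. Adjusted p in edgeR was 0.0172 for miR-30c-5p, 0.0311 for miR-30a-5p and 0.0332 for miR-30e-5p, and miR-30b-5p did not pass (0.201). These values did not follow the counts expected, which were 3.62 for miR-30c-5p, 8.31 for miR-30a-5p and 4.58 for miR-30e-5p. The call of miR-30c-5p stands beside an exact limit of 0.982, which took in its untreated share.

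With library totals in place of TMM, edgeR called miR-30d-5p alone (−4.32 ± 0.71, SE, adjusted p = 0.00697), with 3.63% of loci called lower, and the others had adjusted p from 0.0837 to 0.689. TMM rests on few shared loci at this depth, with factors of 0.767, 1.21 and 3.32 in the withaferin A libraries. miR-30d-5p was called lower under every setting run in which it was tested.

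The count of members called depended on the setting, and stands here with the share of all tested loci called lower under it. All 5 members were called lower with RLE factors, where 21.1% of loci were, in DESeq2 (22.8%), in limma-voom (17.8%), and on the authors' score in limma (95.3%). With no filter on low counts 4 were called (4.97% of loci), as with a minimum count of 1 (10.5%) and with only the loci above the floor (75%). Against a fold of 2 there were 3 (12.9%), and miR-30e-5p did not pass (adjusted p = 0.0524 in edgeR). With 1 locus per miRNA name there were 2 (9.67%), miR-30c-5p and miR-30d-5p, and with the replicate number as a block 2 (7.92%), miR-30a-5p and miR-30d-5p.

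Single libraries also decided calls. Leaving out withaferin A replicate 1, 2 or 3 kept 4 calls when the filter was recomputed (12.2%, 13.1% and 12.7% of loci lower). With the same 303 loci kept, there were 2, 2 and 1 (12.5%, 14.2% and 5.94%), the last being miR-30d-5p. Leaving out untreated replicate 1, 2 or 3 with these loci kept gave 5 calls each (21.8%, 18.2% and 19.1%).

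**Figure D4:**
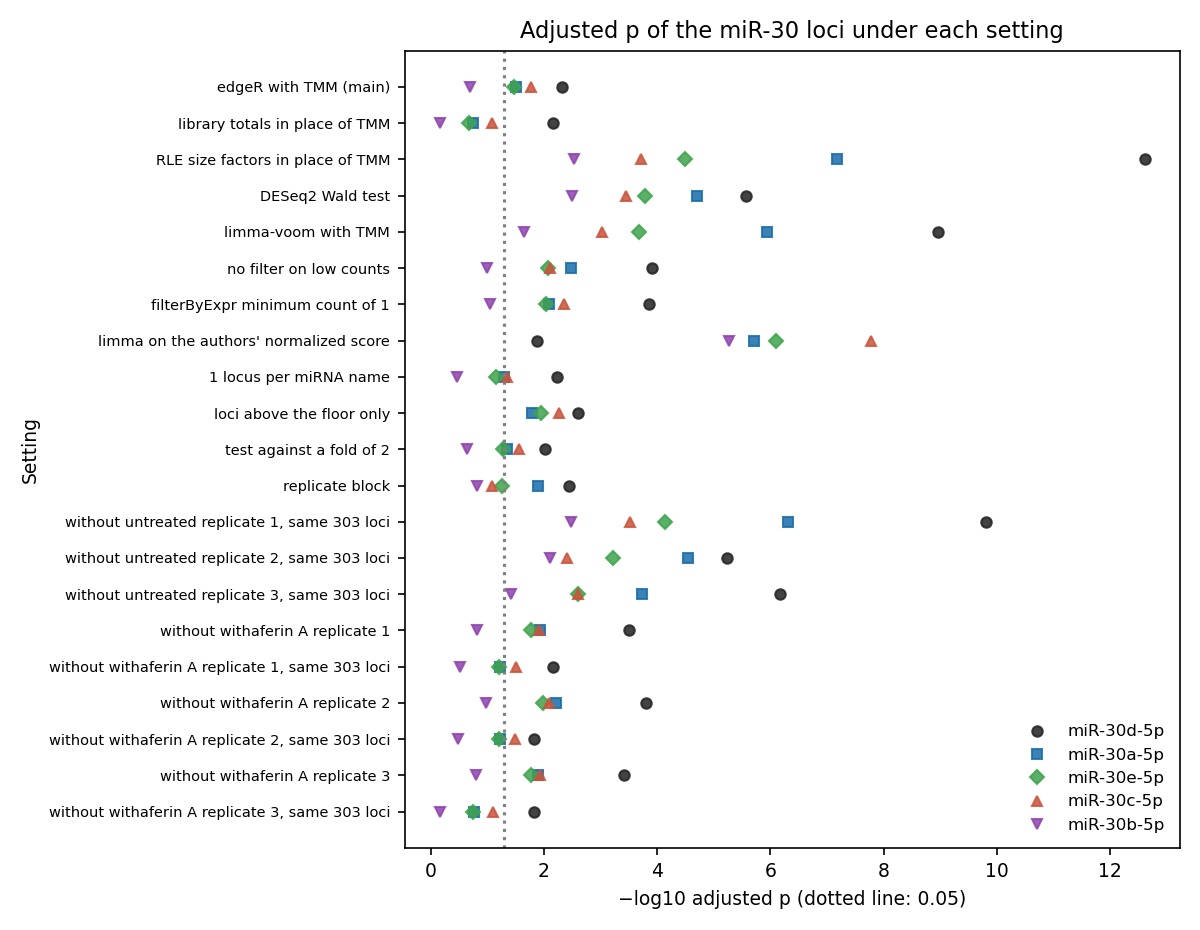
Adjusted p on a −log10 scale (x axis) for each miR-30 locus under each setting in which it was tested (y axis), with the dotted line at 0.05. miR-30d-5p lies right of the line in every row, and miR-30b-5p lies left of it in edgeR with TMM and all loci and libraries of that test (adjusted p = 0.201). The other 3 all lie left of it with library totals, and 1 or more of them in several other settings.

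In the authors' normalized table the single miR-30d-5p count appears as a score of 698, beside 19508, 19402 and 20253 in the untreated libraries, because 1 count in that library was worth 698 units there. The untreated scores of the other members were 4474 to 11989 for miR-30a-5p, 2958 to 6019 for miR-30e-5p, 3336 to 3781 for miR-30c-5p and 1203 to 3580 for miR-30b-5p in the authors' deposited table, with 0 in the withaferin A columns.

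The loci most like the leading member of each pair were taken by the smallest Euclidean distance between log2 CPM values (counts scaled to a common library total, plus 1) over the 3 untreated libraries. Nearest to miR-30d-5p was miR-27b-5p (distance 0.33), at 1.95%, 1.91% and 1.76%, followed by miR-26a-5p (0.92) and let-7i-5p (1.05). miR-27b-5p had 1 count after withaferin A where 22.3 were expected at its untreated share, as few as miR-30d. miR-26a-5p had 5 against 28.6 and let-7i-5p 15 against 26.9.

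Nearest to miR-30a-5p were miR-29a-5p (0.73), miR-20a-5p (0.96) and miR-17-5p (0.97), each with 0 counts after withaferin A. miR-29a-5p was also lowest in replicate 2, at 0.386% against 0.646% and 0.631%, as were miR-20a-5p (0.708% in replicate 2) and miR-17-5p (0.435%). Being picked by likeness over these same libraries, they are no separate support for that pattern. Nearest to miR-30e-5p were miR-181a-5p (0.51), with 0 counts, miR-182-5p (0.52), with 2, and miR-125b-5p (0.73), with 9 against 4.72 expected. Loci of about the same untreated level as a miR-30 member thus ended at 0 to 15 counts.

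Of the 48 other loci above the floor, 21 had 0 withaferin A counts, as had 3 of the 4 miR-30 loci there. Of the 7 miRNAs listed as tied to the epithelial state, 5 were tested in edgeR, 1 was called lower and 0 higher, a share near the 16.8% of all tested loci called lower. miR-200c-5p went from 0.615% ± 0.142 (SD, n = 3) to 0 counts against 7.31 expected (edgeR adjusted p = 0.0162). miR-205-5p had 395 counts against 81.0 expected and did not pass (log2 fold change 1.44, edgeR adjusted p = 0.161). miR-200b-5p, miR-203a-5p and miR-141-5p had 0 counts where fewer than 1 was expected, so nothing could be seen of them at this depth.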

How the data were processed

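Small RNA libraries of untreated and withaferin A-treated MCF10A cells (n = 3 columns each) were compared. Columns were assigned to groups by the sample names in each record. The authors deposited whole-number counts per locus and a normalized score, which is the count times 1 factor per library, rounded, with values for 660 of 947 loci. Trim Galore, cutadapt and edgeR were used and the build was GRCh38.p7, per the submitters' processing notes; the aligner, counting rule and use of molecular identifiers are not given in the sources used here. Reads of near-identical members may thus be split or repeated between loci.

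Here the test was edgeR 4.0.16 (R 4.3.3) with filterByExpr (minimum count 10), TMM scaling and the quasi-likelihood F test, beside DESeq2 1.42.0 and limma 3.58.1 (log2(score + 1) for the score) as alternatives. The SE of an edgeR log2 fold change is its size over the square root of F. Intervals are exact Clopper-Pearson at 95%, from scipy 1.17.1. The edgeR step was also run on simulated counts, whose outcome is not given here and is no support for the calls above. The miR-30 members and all lists were chosen with earlier results of these data known. Named loci were all miR-30 loci, the loci nearest to the leading member of each pair and the epithelial list above 100 CPM. The replicate numbers are shared between groups but are not stated to pair cultures, so a replicate block was run only as an alternative.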

Additional observations from a re-analysis of the deposited data

How the results depend on the processing

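The count of miR-30 loci called lower in edgeR (4) was 1 with library totals, 2 with 1 locus per miRNA name and 2 with a replicate block. The count over the whole table, in either direction, was 53 in edgeR with TMM, of which 51 were lower. With library totals it was 17 (11 lower), and in limma-voom 234 (54 lower and 180 higher). It was 631 of 660 in limma on the authors' score (629 lower). With 1 locus per name it was 31 (26 lower), and with a replicate block 25 (24 lower). Leaving out an untreated library brought it to 6 to 9, as only 10 to 12 loci, none of them miR-30, then passed the filter. Leaving out a withaferin A library gave 52 to 59. Keeping the same 303 loci while leaving out a library was chosen after seeing the data. It gave 24 to 68 calls, and 1 to 5 miR-30 calls, fewest without withaferin A replicate 3.

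With the replicate block miR-30e-5p (edgeR adjusted p = 0.054) and miR-30c-5p (0.0827) were not called. Deviations of same-numbered libraries correlated at 0.208, −0.154 and −0.0668 over 42 loci, and those of different-numbered ones at −0.171 to 0.177. With 340 to 430 counts per withaferin A library, these values cannot decide whether the numbers pair the libraries. miR-30b-5p was called with RLE factors (adjusted p = 0.0029), in DESeq2 (0.00323), in limma-voom (0.0226) on the authors' score (5.28e-06), and with the same 303 loci without an untreated library (0.0033 to 0.0384). All fitted miR-30 changes stayed below 0 in the settings run. With miR-205 and let-7 loci left out of the total, the family's share was 4.26% in untreated and 0.725% in withaferin A libraries. Without 1 library of the group it was 2.95% to 3.60% in untreated and 0 to 0.120% in withaferin A libraries. The cause was not tested. Depth limits all withaferin A values, since 1 count decides that of miR-30d-5p.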
